A study of Caenorhabditis elegans with 2 samples.

Results

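The genes described here encode 5 families of C. elegans transcription factors, the bHLH, T-box, forkhead, Sox and GATA factors. They were chosen by name, as all nuclear protein-coding genes of assembly WBcel235 whose symbols start with hlh-, tbx-, fkh-, sox- or elt-, with hlh-1, hlh-6 and tbx-2 left out by the rule. The rule found 59 genes of 19973, namely 23 bHLH, 18 T-box, 9 forkhead, 3 Sox and 6 GATA genes. The symbol tbx-30 is carried by 2 gene identifiers, WBGene00006549 and WBGene00022000, which were counted apart. The question put to each gene was whether the homeodomain factor CEH-34 was found at its 5′ end.

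CEH-34 was mapped by chromatin immunoprecipitation and sequencing (ChIP-seq) in hermaphrodite late embryos of 1 transgenic line, OP524, with the genotype unc-119(tm4063) III; wgIs524. Its integrated transgene makes CEH-34 with a GFP-FLAG tag at the C-terminus, an antibody against GFP was used for the precipitation, and the embryos were taken 3.5 hours after synchronization by bleaching. There was 1 group with 2 biological replicates from separate biosamples and no second condition, so no groups were compared and no test was made. The labels do not say which promoter drives the transgene, and chromatin came from whole organisms, so a site occupied in few cells and a site occupied weakly in many cells cannot be told apart.

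The deposited data are peak lists. The pooled list, called on both replicates together, held 29417 candidate peaks, replicate 1 held 21725 and replicate 2 held 23509. The thresholded list, made by the authors with the irreproducible discovery rate, held 2508 peaks, of which 2490 were nuclear. By summit and signal, all 2508 were the 2508 strongest peaks of the pooled list, so the pooled and thresholded signals share a scale, and some of these peaks had unlike ranks in the replicates. Each peak has a summit and a signal value, the authors' own height on a scale set for each list, which was used only to describe and rank peaks within that list. Signal ran from 76.51 to 1522 in the thresholded list, and the lowest candidate had 18.11 in the pooled list, 13.32 in replicate 1 and 13.14 in replicate 2. The word bound is used of a gene with a thresholded summit no more than 1000 bp from the 5′ end of one of its coding transcripts, and a gene has a candidate when a summit of a candidate list does so. Read depth is unknown, so the error of a single signal value is unknown too.

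As background, CEH-34 belongs to the sine oculis family of homeodomain proteins and is known for its role in pharyngeal neurons. Factors of the bHLH families bind DNA as dimers and include proneural, mesodermal and metabolic regulators. T-box and forkhead factors act in early fate and organ formation, Sox factors of the B group in neural development, and GATA factors of the elt group in the epidermis and the intestine.

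CEH-34 was called at 3 of the 59 factor genes, hlh-11, hlh-30 and sox-2. That is 5.08% (95% Wilson interval 1.74 to 13.9), and the share over all protein-coding genes was 8.65%. By family, 2 of 23 bHLH genes and 1 of 3 Sox genes were bound, and 0 of 18 T-box, 0 of 9 forkhead and 0 of 6 GATA genes. The Wilson intervals of those shares of 0 reach up to 17.6% for T-box, 29.9% for forkhead and 39% for GATA genes, so each of them includes the share of all genes. The intervals treat genes as units within these lists and cover counting error only.

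**Figure D1:**
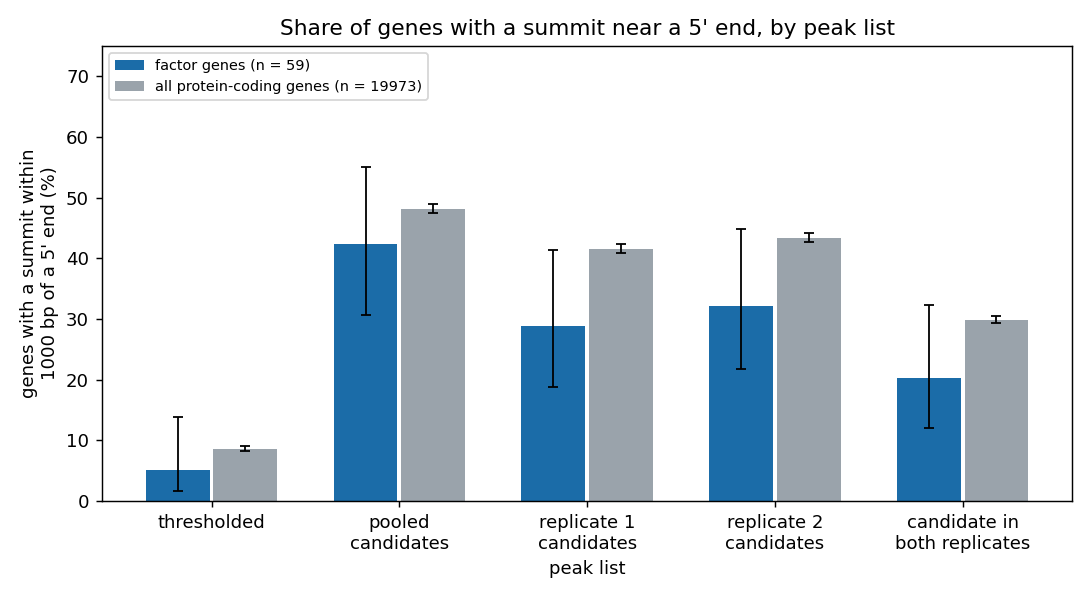
Percent of genes with a summit within 1000 bp of a coding 5′ end (y axis) in each peak list (x axis), for the 59 factor genes (left bars) and all 19973 protein-coding genes (right bars), with 95% Wilson intervals. The factor genes stand at 5.08% in the thresholded list, against 8.65% of all genes, and at 42.4% in the pooled candidate list, against 48.2% of all genes.

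Weaker candidates were found at more of them. In the pooled list 25 of the 59 factor genes had a candidate (42.4%), against 48.2% of all genes. In replicate 1 there were 17 (28.8%), against 41.6% of all genes, and in replicate 2 there were 19 (32.2%), against 43.4%. A candidate in both replicates was found at 12 factor genes (20.3%, Wilson interval 12 to 32.3), against 29.9% of all genes. The families ranged from 4 of 6 GATA genes in the pooled list, namely elt-1, elt-2, elt-3 and elt-6, to 5 of 18 T-box genes, with 11 of 23 bHLH, 4 of 9 forkhead and 1 of 3 Sox genes between them.

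Sequence at the bound summits is shown first, because the 3 bound genes rest on these 5 places. Each run is 101 bases of the forward strand of RefSeq's WBcel235 sequence (ce11 coordinates), centred on the summit. Capitals mark matches on either strand to 4 words searched within 50 bp of each summit, TGATAC (the core of the sine oculis site), TCAGGTT (a MEF3-type word), GAGAGA and CAGCTG (an E-box that reads the same on both strands). Overlapping GAGAGA matches run together, and on the other strand that word reads TCTCTC.
hlh-11, 239 bp upstream, chrIII:9619422-9619522: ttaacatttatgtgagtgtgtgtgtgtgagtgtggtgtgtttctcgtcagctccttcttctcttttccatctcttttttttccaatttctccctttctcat
hlh-30, 999 bp upstream, chrIV:4019993-4020093: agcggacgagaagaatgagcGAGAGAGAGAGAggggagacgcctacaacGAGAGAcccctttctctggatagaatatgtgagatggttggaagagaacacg
hlh-30, 150 bp upstream, chrIV:4028227-4028327: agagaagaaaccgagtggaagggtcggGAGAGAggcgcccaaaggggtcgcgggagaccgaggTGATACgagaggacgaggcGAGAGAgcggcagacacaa
sox-2, 773 bp upstream, chrX:7464459-7464559: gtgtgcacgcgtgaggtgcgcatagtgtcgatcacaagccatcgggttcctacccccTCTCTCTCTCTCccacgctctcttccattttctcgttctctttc
sox-2, 124 bp upstream, chrX:7460622-7460722: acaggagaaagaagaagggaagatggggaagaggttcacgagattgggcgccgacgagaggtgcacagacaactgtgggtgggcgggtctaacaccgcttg

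GAGAGA lay at 3 of these 5 summits, both of hlh-30 and the more distant one of sox-2, and at 28.8% of all nuclear thresholded summits and 11.1% of pooled candidate summits. TGATAC lay at 1 of the 5, the hlh-30 summit 150 bp upstream, and at 3.21% of thresholded and 2.67% of pooled summits. TCAGGTT and CAGCTG lay at none of the 5, and at 1.53% and 3.94% of thresholded summits. The hlh-11 summit was the most AT-rich, with 38.6% GC, and the hlh-30 summit 150 bp upstream the richest in GC, with 62.4%, where thresholded summits averaged 48.9%. A match describes these letters only and does not show a site in use.

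The bHLH gene hlh-30 encodes the worm relative of TFEB, a regulator of autophagy and lysosome genes. It lies on chromosome IV at 4014793 to 4034951 on the reverse strand, with 10 coding 5′ ends spread over the gene. Its strongest summit, at 4020043 in an intron, had a signal of 143.1, the 782nd strongest of the 2490 nuclear thresholded peaks. Replicate 1 had a candidate of signal 57.76 at the same base, and replicate 2 had one of 84.56 at a distance of 15 bp. That summit lay 999 bp upstream of its nearest 5′ end, at the very edge of the window. A second thresholded summit, at 4028277, was also intronic and lay 150 bp upstream of another 5′ end, with a signal of 106.6 in the pooled list, 41.97 in replicate 1 and 62.02 in replicate 2. A further one at 4024723, 2340 bp from any 5′ end, had 80.65 and none of the searched words within 50 bp. The call for hlh-30 rests on internal 5′ ends, since with the most upstream end of each gene alone it was not bound.

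The gene hlh-11 encodes a relative of the vertebrate factor AP-4, known in worms for lipid metabolism. It lies on chromosome III at 9619711 to 9626529 on the forward strand, with 6 coding 5′ ends. Its summit at 9619472 was intergenic, 239 bp upstream of the nearest 5′ end, with a signal of 128.1 (nuclear rank 1010). The nearest candidates had a signal of 59.45 in replicate 1, at a distance of 6 bp, and 75.37 in replicate 2, at 62 bp. A further thresholded summit at 9625075 lay in an exon of hlh-11, 2601 bp from the nearest 5′ end. It had 93.8 in the pooled list, 50.87 in replicate 1 and 44.07 in replicate 2, and none of the searched words within 50 bp.

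The Sox gene sox-2 encodes a SoxB factor that acts in neural development. It lies on the X chromosome at 7458280 to 7463736 on the reverse strand, with 4 coding 5′ ends. The stronger of its thresholded summits, at 7464509, was intergenic and 773 bp upstream, with a signal of 112.7 (nuclear rank 1285). Replicate 1 had a candidate of signal 59.37 at a distance of 43 bp, and replicate 2 had one of 54.33 at 35 bp. The other, at 7460672 in an intron and 124 bp upstream of an internal 5′ end, had a signal of 77.88 and stood just inside the threshold, at nuclear rank 2424 of 2490. Its candidates had signals of 38.88 in replicate 1 and 40.83 in replicate 2. The space upstream of sox-2 was 1456 bp.

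None of the 5 summits within the window of hlh-11, hlh-30 and sox-2 had the 5′ end of another coding gene within 1000 bp, and none had a tRNA, rRNA, snRNA or snoRNA gene within 200 bp. All 3 genes have several coding 5′ ends. Among factor genes with several 5′ ends 3 of 17 were bound (17.6%), against 13.9% of all such genes. Among factor genes with 1 coding 5′ end 0 of 42 were bound, against 6.76% of all such genes. The space upstream of a gene had a median of 2415 bp over the factor genes, against 937 bp over all protein-coding genes. The part of either feature in the counts was not tested.

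**Figure D2:**
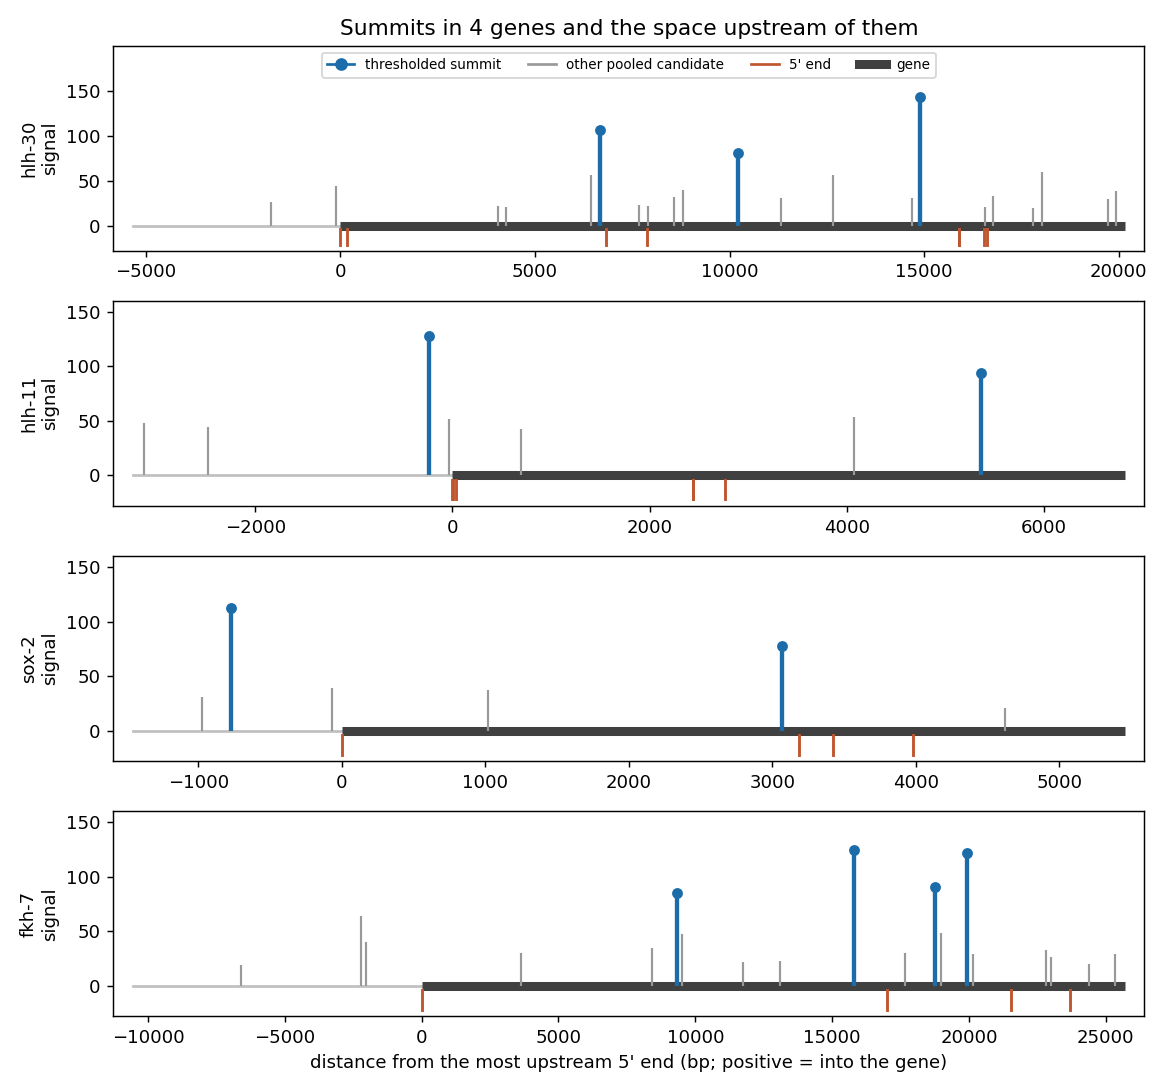
Signal of pooled candidate summits (y axis) against distance from the most upstream coding 5′ end in bp (x axis, positive into the gene) for hlh-30, hlh-11, sox-2 and fkh-7, with thresholded summits as capped lines, other candidates as thin lines, the gene as a bar and each 5′ end as a tick below it. The thresholded summits of hlh-30 are inside the gene, hlh-11 and sox-2 each have 1 before the gene and 1 in it, and the 4 of fkh-7 are inside the gene and past 1000 bp from each 5′ end.

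The forkhead genes had no bound member, but fkh-7, a FoxP relative, carried 4 thresholded summits in its introns. It spans 5584684 to 5610378 on the forward strand of chromosome IV, with 4 coding 5′ ends, and all 4 summits lay past the 1000 bp window. The summit at 5600487, 1220 bp upstream of the nearest 5′ end, had a signal of 125.0 in the pooled list, 42.52 in replicate 1 and 80.29 in replicate 2. The summit at 5604628, 1602 bp upstream, had 121.9 in the pooled list, 71.77 in replicate 1 and 47.38 in replicate 2. The summit at 5603431, 1724 bp downstream of a 5′ end, had 90.92 in the pooled list, 29.33 in replicate 1 and 67.61 in replicate 2. The one at 5594008, 7699 bp upstream, had 84.95 in the pooled list, 43.01 in replicate 1 and 47.81 in replicate 2. The strongest of the 4 was thus the summit at 5604628 in replicate 1 and the summit at 5600487 in replicate 2. Of the searched words, GAGAGA lay within 50 bp of the summits at 5600487 and 5604628, and CAGCTG alone at 5594008. The summit at 5603431 had none of them. The summit with the highest pooled signal is shown as an example of an intronic summit outside the window, on the forward strand, with a GAGAGA match in capitals.
fkh-7, 1220 bp upstream, chrIV:5600437-5600537: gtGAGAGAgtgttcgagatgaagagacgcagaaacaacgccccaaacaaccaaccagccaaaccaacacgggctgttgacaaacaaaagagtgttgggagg

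Few genes held as many thresholded summits. Counting each gene together with the intergenic space upstream of it, 51 of 19973 genes (0.255%) held at least 4, and fkh-7 was the 1 factor gene among them. At least 3 were held by 125 genes (0.626%), among them fkh-7 and hlh-30, and at least 2 by 507 genes (2.54%), among them 4 factor genes. At least 1 was held by 2578 genes (12.9%), among them 5 of the 59 factor genes. Counts of this kind grow with the length of a gene and its upstream space, and no adjustment for length was made.

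Within the window, fkh-2 (a FoxG relative) had the strongest forkhead candidate of the pooled list, with 45.29 at 327 bp upstream. Nearest to that summit, replicate 1 had a candidate of 16.08 at the same base and replicate 2 one of 22.96 at a distance of 81 bp, while the strongest candidate of replicate 1 in the window, 35.34, was at another place. For fkh-9, known from neurons, the strongest pooled candidate had 39.73. The nearest candidates had 16.82 in replicate 1 at a distance of 4 bp and 22.12 in replicate 2 at 8 bp. Its strongest candidate in replicate 1, of 21.57, was near another 5′ end of the gene. The window of fkh-7 held 4 pooled candidates, the strongest of 32.81, and 2 of replicate 2, with none in replicate 1. The stronger one of replicate 2 had 21.01, 193 bp from the strongest pooled summit. The gonadal factor gene fkh-6 had a pooled candidate of 22.92 alone, in an exon of fkh-6 that overlaps an intron of B0286.1. For fkh-8, a FoxJ relative of ciliated neurons, the single candidate was in replicate 2, with 13.19, barely above the lowest value of that list and 434 bp from the 5′ end of cpb-2. No list had a candidate at fkh-3, fkh-4, fkh-5 or fkh-10.

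Of the T-box genes, tbx-38 and tbx-37 had the strongest candidates in the pooled list, though not in either replicate. They encode closely related factors that act redundantly in the mesoderm of the anterior pharynx. For tbx-38 the signal was 50.51 in the pooled list, 111 bp upstream of its 5′ end, with 22.82 in replicate 1 and 19.14 in replicate 2. For tbx-37 it was 40.64 in the pooled list, 151 bp upstream, with 19.28 in replicate 1 at a distance of 1 bp and 19.11 in replicate 2 at 81 bp. The pooled value of tbx-38 was the highest of any factor gene that was not bound, and it stayed below the 76.51 of the weakest thresholded peak. The pair is shown because its summits lie in sequence the genes share, with the longest shared run in capitals (forward strand, RefSeq WBcel235).
tbx-37, 151 bp upstream, chrIII:11227226-11227326: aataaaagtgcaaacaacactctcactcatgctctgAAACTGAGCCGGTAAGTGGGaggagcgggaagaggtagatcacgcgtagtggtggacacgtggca
tbx-38, 111 bp upstream, chrIII:11786122-11786222: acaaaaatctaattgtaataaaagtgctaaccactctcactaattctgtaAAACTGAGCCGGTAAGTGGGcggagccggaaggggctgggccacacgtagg

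An alignment of these windows paired 84 positions, of which 74 were identical (88.1%). The shared run is 20 bases long and occurs 2 times in the nuclear genome, at these genes. It covers positions 37 to 56 of the tbx-37 window and 51 to 70 of the tbx-38 window, counted from the left, where the summit is position 51. None of the 4 searched words lay within 50 bp of either summit. Of the 31-base words within 1000 bp of the 5′ end, 93.2% for tbx-37 and 98.2% for tbx-38 occur once in the genome. That share was not taken for the aligned stretches alone.

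Of the other T-box genes, tbx-32 and tbx-34 also had a candidate in every list. The values for tbx-32 were 34.95 in the pooled list, 16.44 in replicate 1 and 27.91 in replicate 2, and the pooled summit lay 165 bp from the 5′ end of ZK380.6, nearer than the 896 bp to tbx-32. For tbx-34 they were 27.87 in the pooled list, 27.93 in replicate 1 and 18.19 in replicate 2, the last of these 404 bp from the pooled summit, which lay 51 bp from the 5′ end of wht-8. The pooled candidate of tbx-41 had 22.52 and that of replicate 1 had 13.57, with none in replicate 2. At tbx-7, replicate 1 alone had a candidate, an intronic one of 34.75 that ranked 2953rd of 21725, and the nearest pooled summit lay 2127 bp away. No list had a candidate at the other 12, which are tbx-8, tbx-9, tbx-11, both genes named tbx-30, tbx-31, tbx-33, tbx-35, tbx-36, tbx-39, tbx-40 and tbx-43. Among these, tbx-8 and tbx-9 are known to act redundantly in body morphogenesis, and their nearest thresholded summits lay 13179 bp and 7688 bp away.

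**Figure D3:**
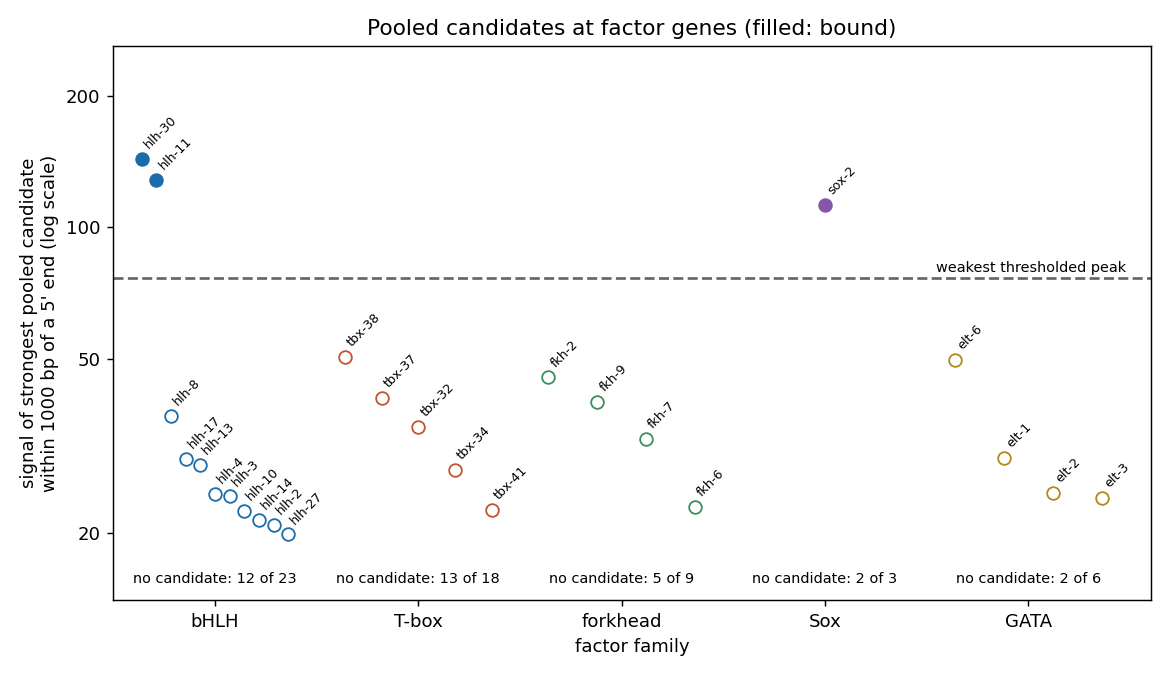
Signal of the strongest pooled candidate within 1000 bp of a 5′ end (y axis, log scale) for each factor gene with one, by family (x axis). Filled points are the bound genes hlh-30 (143.1), hlh-11 (128.1) and sox-2 (112.7), open points are unbound genes, which reach up to 50.51 at tbx-38, and the dashed line is the weakest thresholded peak at 76.51.

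Bound and unbound factor genes lay, by definition, on either side of the weakest thresholded peak, at 76.51. The weakest of the bound genes had 112.7 at its strongest summit and the highest unbound gene 50.51. These ends were read from the factor genes themselves, so a count of 0 factor genes between them was fixed in advance. Over all genes with a pooled candidate, 2055 of 9619 (21.4%) had their strongest candidate between these values, which is therefore no comparison with the factor genes. The 25 factor genes with a candidate had a median signal of 29.5, against 34.7 over all 9619 genes with one. Without the bound genes the medians were 28.2 over 22 factor genes, which ran from 19.8 to 50.51, and 30.8 over all 7892 unbound genes with a candidate.

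The remaining bHLH genes had weak candidates or none. The gene hlh-8 encodes the worm Twist factor of the mesoderm, and its intronic candidate had 37.04 in the pooled list, 21.65 in replicate 1 and, at a distance of 111 bp, 17.74 in replicate 2. It was the only unbound bHLH gene with a candidate in every list. For hlh-17, an Olig relative, the signal was 29.5 in the pooled list and 16.37 in replicate 2. For hlh-13, of the PTF1A family, it was 28.6 in the pooled list, at an exonic summit, and 17.05 in replicate 2. Neither gene had a candidate in replicate 1.

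The achaete-scute relatives hlh-3, hlh-4 and hlh-14, of which hlh-3 and hlh-14 are known as proneural genes, had pooled signals of 24.19, 24.47 and 21.33. Replicate 1 had a candidate at hlh-4 (17.57) and replicate 2 at hlh-14 (18.19), while hlh-3 had none in either. The pooled summit of hlh-4 lay in an exon of T05G5.1. The pooled candidates of hlh-10 (22.44) and hlh-27 (19.8) had no counterpart in the window of either replicate, and the one of hlh-27 lay in an intron of C17C3.24. At hlh-34, whose product has a PAS domain, replicate 1 alone had candidates, 2 in the window. The stronger, of signal 31.66, lay in an exon of T01D3.3 and 6448 bp from the nearest pooled summit. At hlh-33 replicate 2 alone had candidates, 2 in the window, of 16.51 and 16.01.

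The other 10 bHLH genes had no candidate in any list. They were hlh-12, which acts in the distal tip cells, hlh-15, hlh-16, hlh-19, the REF-1 family genes hlh-25, hlh-26, hlh-28 and hlh-29, and the Olig relatives hlh-31 and hlh-32. The windows of some factor genes, with and without candidates, hold repeated sequence. The share of 31-base words in the window that occur once in the genome was 20.3% for hlh-28, 20.9% for hlh-29, 47.6% for each of hlh-25 and hlh-27, 64.6% for fkh-3, 71.3% for fkh-4 and 0.0% for each tbx-30 gene. The part of this in the presence or lack of a candidate was not tested.

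The E protein gene hlh-2, which encodes the common dimer partner of many bHLH factors, stood just outside the window. It lies on chromosome I at 7190788 to 7193920 on the reverse strand, with 1 coding 5′ end and 8284 bp of upstream space. Its thresholded summit, at 7195054, was intergenic and 1134 bp upstream, with a signal of 100.3 (nuclear rank 1593). The nearest candidates had 57.69 in replicate 1, at a distance of 3 bp, and 42.15 in replicate 2, at 17 bp. This summit had a GAGAGA match and none of the other searched words. Within the window, hlh-2 had a single pooled candidate of 20.8 and none in either replicate.

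By thresholded summits, hlh-30 was nearest to the edge of the window, inside it at 999 bp, though its second summit lay at 150 bp. The nearest outside were hlh-2 and fkh-7, at 1134 bp and 1220 bp. Over all 1727 bound genes the nearest summit had a median distance of 269 bp, and 4.69% were bound by summits past 900 bp alone. A window of 2000 bp held 5 factor genes, the same 3 with hlh-2 and fkh-7, against 12.4% of all genes. A window of 500 bp held the same 3, against 6.39% of all genes. Taking the whole gene with its upstream space also held 5, against 12.9% of all genes.

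Among the GATA genes elt-6, a seam cell factor gene that neighbours egl-18, had the strongest candidate. Its pooled summit had a signal of 49.79, in an intron 394 bp downstream of the 5′ end, and the nearest candidates had 25.4 in replicate 1, at a distance of 36 bp, and 19.53 in replicate 2, at 9 bp. The epidermal fate gene elt-1 had 29.59 in the pooled list, with 17.09 in replicate 2 at a distance of 10 bp, and the nearest candidate of replicate 1 lay 2070 bp from that summit. Its strongest candidates in the window, 21.72 in replicate 1 and 19.87 in replicate 2, were at other places. The intestinal gene elt-2 had 24.58, in an exon 967 bp downstream of the 5′ end, and 15.16 in replicate 2 alone. The hypodermal gene elt-3 had 24.03 in the pooled list and no candidate in the window in either replicate. Its nearest replicate candidates lay just outside, 1117 bp downstream of a 5′ end, with 22.14 in replicate 1 and 53.24 in replicate 2. In no list was there a candidate at elt-4 or the intestinal gene elt-7.

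The other Sox genes were not bound and had no pooled candidate. At sox-3 the single candidate was an exonic one in replicate 1, with a signal of 15.14, and sox-4 had no candidate in any list, with its nearest thresholded summit 33958 bp away. With 3 genes in the family, 1 bound gene gives a share of 33.3% whose Wilson interval runs from 6.15 to 79.2.

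**Figure D4:**
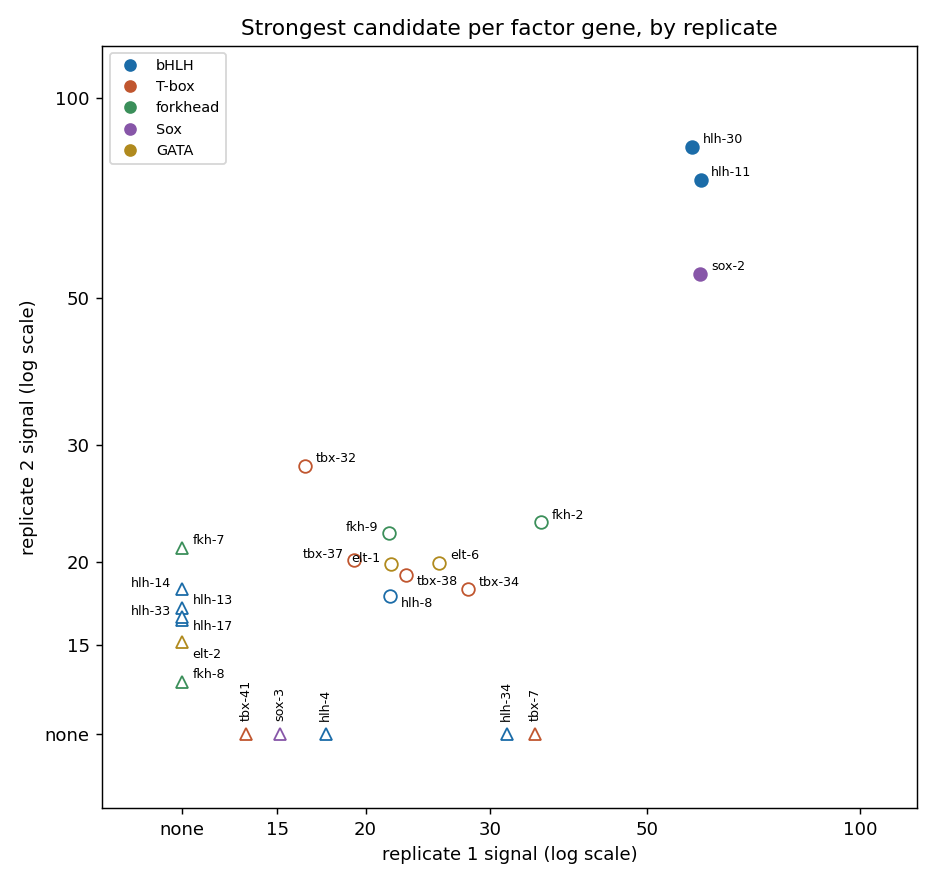
Signal of the strongest candidate within 1000 bp of a 5′ end in replicate 1 (x axis, log scale) and replicate 2 (y axis, log scale), 1 point per factor gene, coloured by family and filled where the gene is bound. Triangles on the "none" lines are genes with a candidate in the other replicate alone, and the summits of a point need not coincide. The 3 bound genes have 57.76 to 59.45 in replicate 1 and 54.33 to 84.56 in replicate 2, above all other points.

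Of the 25 factor genes with a pooled candidate, 12 had a candidate somewhere in the window in both replicates (48%, against 59.7% of all genes with a pooled candidate), 7 in 1 replicate and 6 in neither (24%, against 8.07% of all such genes). The 6 were elt-3, fkh-6, hlh-2, hlh-3, hlh-10 and hlh-27. Another 5 genes, sox-3, tbx-7, hlh-33, hlh-34 and fkh-8, had a candidate in 1 replicate and none in the pooled list, which leaves 29 genes with none anywhere. These counts are by gene, and the summits need not coincide. Of the 12, elt-1 lacked a replicate 1 candidate within 2000 bp of its strongest pooled summit and tbx-34 had its replicate 2 candidate 404 bp away, while the other 10 had candidates of both replicates within 111 bp. Across the 12 genes, the log2 signals of the strongest candidate of each replicate had a Pearson correlation of 0.855 and a Spearman correlation of 0.434. Across the 9 of them that were not bound the correlations were -0.293 (Pearson) and -0.3 (Spearman). That split used the pooled signal of these same replicates, so the values do not measure how well the replicates agree. These correlations are descriptions across genes of 1 pair of libraries, which share the line and the antibody.

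Members of the same 5 families under other symbols were counted for the level beside them. Of 31 such genes 3 were bound (9.68%, against 8.65% of all genes), namely aha-1, mdl-1 and pha-4. A pooled candidate was found at 23 (74.2%, against 48.2% of all genes). The Mad-like gene mdl-1 had the highest signal of all genes of these families counted here, 302.8 in the pooled list at 154 bp upstream, 142.9 in replicate 1 and 158.6 in replicate 2. The gene pha-4, the FoxA factor of pharynx identity, had an intronic summit of 138.9, with 67.05 in replicate 1 and 70.35 in replicate 2. That summit lay 506 bp downstream of the nearest of its 3 coding 5′ ends. With a window of 500 bp, or with the most upstream 5′ end alone, pha-4 was not bound. At aha-1, the ARNT relative, the values were 102.3 in the pooled list, 51.19 in replicate 1 and 54.24 in replicate 2, and its summit lay 2 bp from the 5′ end of C25A1.15. Just below the threshold stood cky-1 with 75.73 and the forkhead gene lin-31 with 72.71.

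Of the genes that the rule left out, tbx-2 was bound, with 107.9 in the pooled list, 56.5 in replicate 1 and 47.15 in replicate 2. The gene hlh-1 had a candidate of 51.93 and hlh-6 had none. With these 3 counted in, the T-box genes would hold 1 bound member of 19. Among other transcription factor families, 6 of 63 homeobox genes named ceh (9.52%) and 16 of 269 nuclear hormone receptor genes named nhr (5.95%) were bound, against 8.65% of all genes. A pooled candidate was found at 63.5% of the ceh genes and 39.8% of the nhr genes, against 48.2% of all genes. No test between these families was made.

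Other rules for the call left 2 or 3 of these genes bound. With each summit given to its nearest 5′ end alone, the same 3 were bound, against 6.52% of all genes. With the most upstream 5′ end of each gene alone, sox-2 and hlh-11 were bound, against 7.95% of all genes. With the thresholded peaks of above-median signal alone, hlh-11 and hlh-30 were, against 4.62% of all genes. Without summits near structural RNA genes the same 3 were bound, against 8.11% of all genes. A list of equal length taken from a single replicate, the strongest candidates of replicate 2 (8.31% of all genes) or of replicate 1 (8.88%), also held the same 3.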

How the data were processed

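The peak lists were used as deposited. Per the file lists that accompany them, candidate peaks were called in each replicate and on both together, and a thresholded list was derived by the irreproducible discovery rate. Which aligner and caller made them is not given in the sources used here. For each peak, the deposited signal is the authors' own height, scaled within each list. Control data were not analysed here. Pooled and thresholded signals were set side by side because thresholded peaks keep their pooled value; signals of the replicates have their own scales.

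Only the ce11 lists were joined to Ensembl release 115 and RefSeq sequence of WBcel235. Bound genes have a thresholded summit no more than 1000 bp from a 5′ end of a coding transcript, and every gene near a summit was counted. Mitochondrial genes were left out. Shares have 95% Wilson intervals. The calling step was tested on simulated data. Python 3.11.15, numpy 2.4.6, pandas 2.3.3 and matplotlib 3.10.9 were used.

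The genes, the lists of relatives and the 4 words searched were chosen with earlier results of these data known. The named genes were every bound gene, up to 3 unbound genes per family with the strongest pooled candidate, those with a thresholded summit between 1000 and 2000 bp, a fixed list of developmental regulators, and bound relatives; the rest are named so that each gene is accounted for. Alternatives were other windows, other 5′ ends, peaks of above-median signal, summits away from structural RNA genes, and lists of a single replicate.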

Additional observations from a re-analysis of the deposited data

How the results depend on the processing

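The count of 3 bound factor genes was 2 or 3 under the other settings tried, except for windows of 2000 bp and for whole genes with their upstream space, where it was 5 in each case, with hlh-2 and fkh-7 added. Those settings gave 1 bound forkhead gene, fkh-7. With the most upstream 5′ end alone 1 bHLH gene was bound, since hlh-30 was lost, and with the thresholded peaks of above-median signal 0 Sox genes were, since sox-2 was lost. Leaving out either replicate, by taking as many of the strongest candidates of the other, gave 3 bound factor genes in both cases (range 3 to 3). It gave 4 bound relatives in both cases (range 4 to 4), but not the same ones. To aha-1, mdl-1 and pha-4 it added cky-1 without replicate 1 (8.31% of all genes bound) and sem-2 without replicate 2 (8.88%). A window of 500 bp gave 2 bound relatives, with pha-4 lost, against 6.39% of all genes. A window of 2000 bp gave 4, with daf-16 added, against 12.4%. Giving each summit to its nearest 5′ end alone (6.52% of all genes) left 2, with aha-1 lost. So did peaks of above-median signal alone (4.62%). Whole genes with their upstream space gave 8 of 31, against 12.9% of all genes, again without aha-1. The upstream space had a median of 4220 bp over the relatives and 937 bp over all genes, and no adjustment for length was made. These settings for the relatives were added after seeing the data.

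Candidate counts moved more with the settings. The pooled peaks of above-median signal left 14 factor genes with a candidate, against 31.6% of all genes. In replicate 1 a window of 2000 bp gave 27, against 56.8% of all genes. In replicate 2 a window of 500 bp gave 12, against 31% of all genes, and the peaks of above-median signal 10, against 27.4%. For a candidate in both replicates a window of 2000 bp gave 21, against 44.2%. No paired analysis was possible because there is 1 group and no test was made. Depth is unknown, so a missing candidate does not show that a gene was not occupied.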
